A study of Mus musculus with 6 samples.

Results

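Lysosomal genes and the transcription factors that drive them were followed in mouse induced pluripotent stem cells (iPSCs), fibroblasts reprogrammed to a pluripotent state. The set held 38 genes grouped by function: Tfe3 and Tfeb, their inhibitor Flcn, and 35 genes for lysosomal enzymes, membrane proteins and cofactors. All 38 were measured, each by 1 probe set with a single gene symbol, among 19938 genes on the array. RNA came from 3 cultures labelled Naive-mPSC and 3 labelled Primed-mPSC. Naive cells grew in DMEM with 15% FBS and the cytokine LIF at 1000 U/ml. Primed cells grew in medium conditioned by mouse embryonic fibroblasts (MEF-CM) with basic FGF at 8 ng/ml, on feeder cells or on matrigel, a basement membrane extract. The titles trace the naive iPSCs to embryonic and the primed iPSCs to adult dermal fibroblasts, whereas the source label names embryonic fibroblasts throughout. Culture state and origin of the line can therefore not be told apart by the titles. The labels state neither the strain nor the number of clones.

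Lysosomes are acid organelles in which hydrolases break down proteins, glycans and lipids. Tfe3 and Tfeb are basic helix-loop-helix factors that bind E-box sequences in the promoters of lysosomal genes. The kinase complex mTORC1, which sits on the lysosome when amino acids are plentiful, holds them in the cytoplasm, and folliculin, the Flcn product, takes part in this. In mouse embryonic stem cells nuclear Tfe3 sustains naive self-renewal, and folliculin with its Fnip partners lets the cells leave that state by excluding Tfe3 from the nucleus. The arrays measured RNA levels and say nothing of where these proteins were.

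Pou5f1 and Sox2, the defining factors of pluripotent cells, were bright on all arrays. Pou5f1 had means of 12.59 in naive and 11.53 in primed cells, and Sox2 of 12.42 and 11.90 (log2 scale, n = 3). Over all 9 pluripotency markers, 7 were lower in primed cells and none rose, with a median difference of -0.52 and a log2 summed level of 15.52 to 15.54 in naive and 15.01 to 15.08 in primed cells. Replicate arrays correlated at Pearson r between 0.9981 and 0.9988 over named probe sets, and arrays of different groups between 0.9807 and 0.9812. Sensory receptor genes (1190 olfactory and vomeronasal ones) served as background, whose 95th percentile on an array lay between 6.96 and 7.03. All values are log2 levels as deposited, and all differences are primed minus naive, so a negative difference is a higher level in naive cells. A gene passed where limma's adjusted p, over all genes, was under 0.05. What the 3 biological replicates of a group repeated is not stated by the labels, and the p-values measure only the spread between them, which may be technical.

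Most lysosomal genes were higher in primed cells, whereas Tfe3 and Tfeb were higher in naive cells. Of the 38 genes, 30 rose in primed cells, where 21.8% of all genes did. Another 6 were higher in naive cells, where 22.7% of all genes were. Of genes above the 40th percentile of mean level, 29.8% were higher in primed and 31.7% in naive cells. Ctsh and Lamp1 did not pass. The median difference was 0.48, against -0.001 over all genes. Among the 35 lysosomal genes alone, 29 rose in primed cells, 4 were higher in naive cells (Ids, Ctsc, Ctso and Cln3) and the median was 0.50. Of these 35, 21 lay above the 90th percentile of all differences. The primed arrays lay above all naive arrays for 32 of the 38 genes (25.9% of all genes) and below them for the other 6 (27% of all genes), so that no gene of the set overlapped between the groups. A rise of at least 2-fold was passed by 8 genes (1.71% of all genes): Hexa, Neu1, Manba, Naglu, Ctsf, Ctsa, Lamp2 and Idua. Ids was the 1 gene at least 2-fold higher in naive cells (1.84% of all genes).

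**Figure D1:**
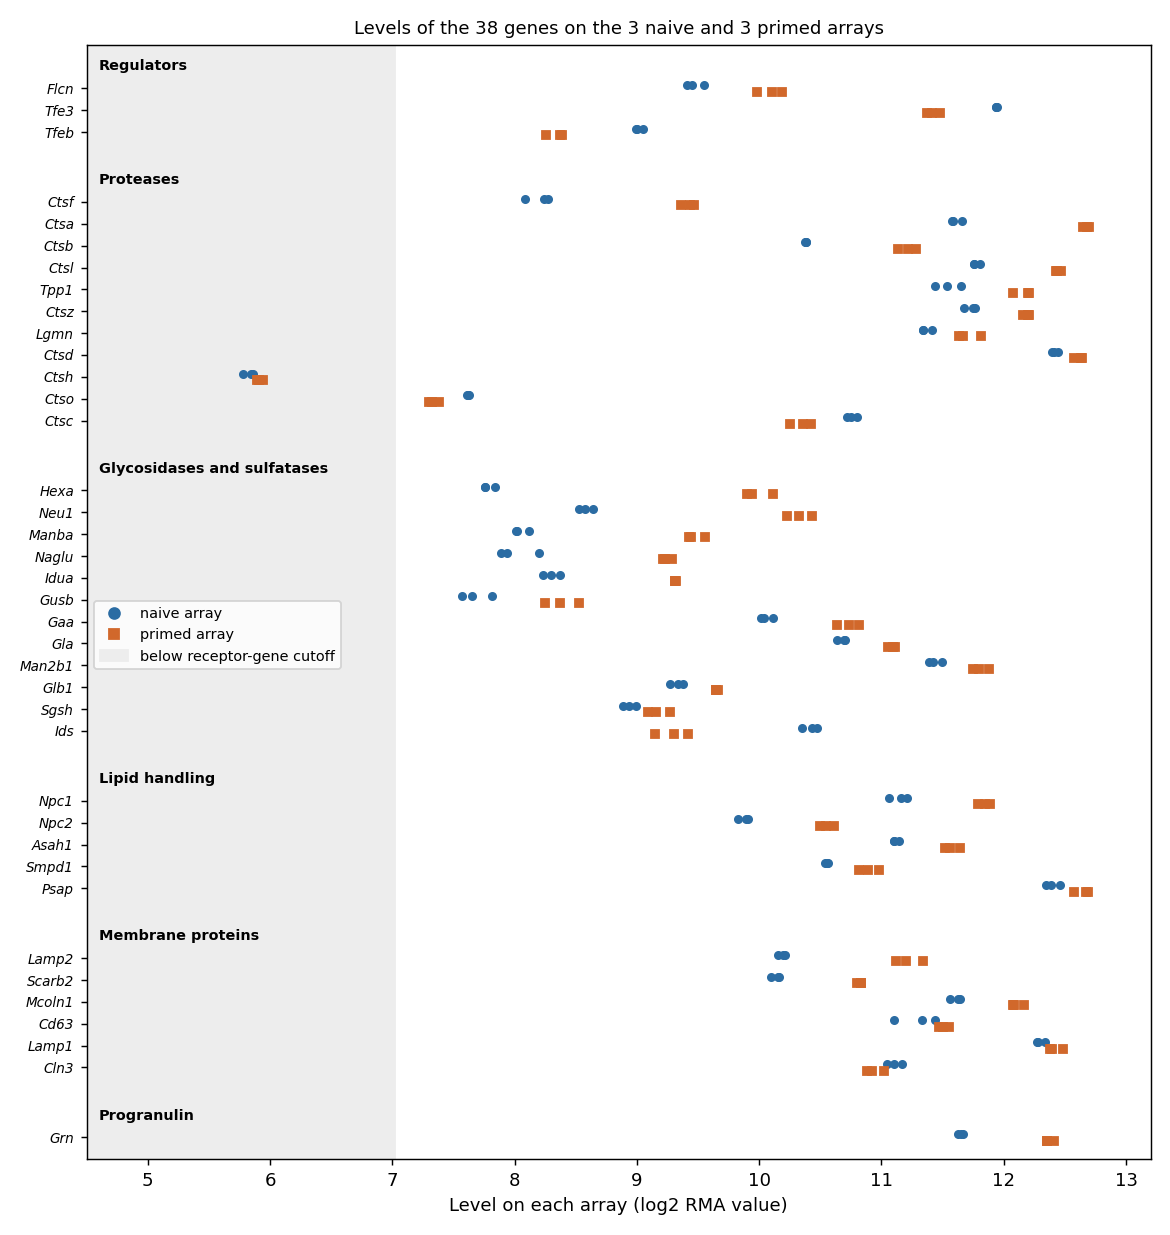
Level of each of the 38 genes on each array (horizontal axis, log2 RMA value), grouped by role; circles are the 3 naive arrays, squares the 3 primed arrays, and the grey area lies below the receptor-gene cutoff. Ctsh lies in the grey area on all arrays, and primed squares lie right of the naive circles for 32 genes.

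The 38 genes lie on 15 chromosomes. Tfe3, Gla, Ids and Lamp2 are X-linked, and of these Gla and Lamp2 rose in primed cells while Tfe3 and Ids were higher in naive cells. Ctsb lies on chromosome 14 beyond Shisa2, in RefSeq gene order of assembly GRCm38.p6. From Shisa2 to the last gene of the chromosome, the median difference over 129 expressed genes (mean level above the median of all genes) was 0.52. Over the other 210 expressed genes of the chromosome it was -0.05. The start of the stretch at Shisa2 was set by hand, so this contrast is a description only. The part of the stretch in the Ctsb value was not tested.

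With each array centred on its median over the genes tested, 29 genes of the set rose in primed cells and 6 were higher in naive cells. The same centring changed the split over all genes from 4347 higher in primed against 4529 higher in naive cells to 3439 against 6325. Under quantile normalization the counts for the set were 31 and 5.

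Among the regulators, Tfe3 and Tfeb fell and Flcn rose. Tfe3 stood at 11.94, 11.94 and 11.94 on the naive arrays and at 11.48, 11.41 and 11.37 on the primed arrays. The primed levels were all lower, by a difference of -0.52 (SE 0.05, limma adjusted p = 7.4e-06). Tfeb, its close relative, stood at 9.01, 8.995 and 9.05 in naive and at 8.26, 8.37 and 8.39 in primed cells. Its difference of -0.68 (SE 0.06, adjusted p = 1.5e-06) was again without overlap. Flcn went from 9.41, 9.55 and 9.45 to 10.11, 9.98 and 10.18, a rise of 0.62 (SE 0.06, adjusted p = 1.1e-05). These are whole cultures, in which fewer cells with a transcript and less of it per cell cannot be told apart. The other genes of the family did not pass: Mitf had a difference of 0.03 (95% interval -0.09 to 0.14) near 7.7, and Tfec one of 0.01 (-0.12 to 0.13) in background on all arrays.

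**Figure D2:**
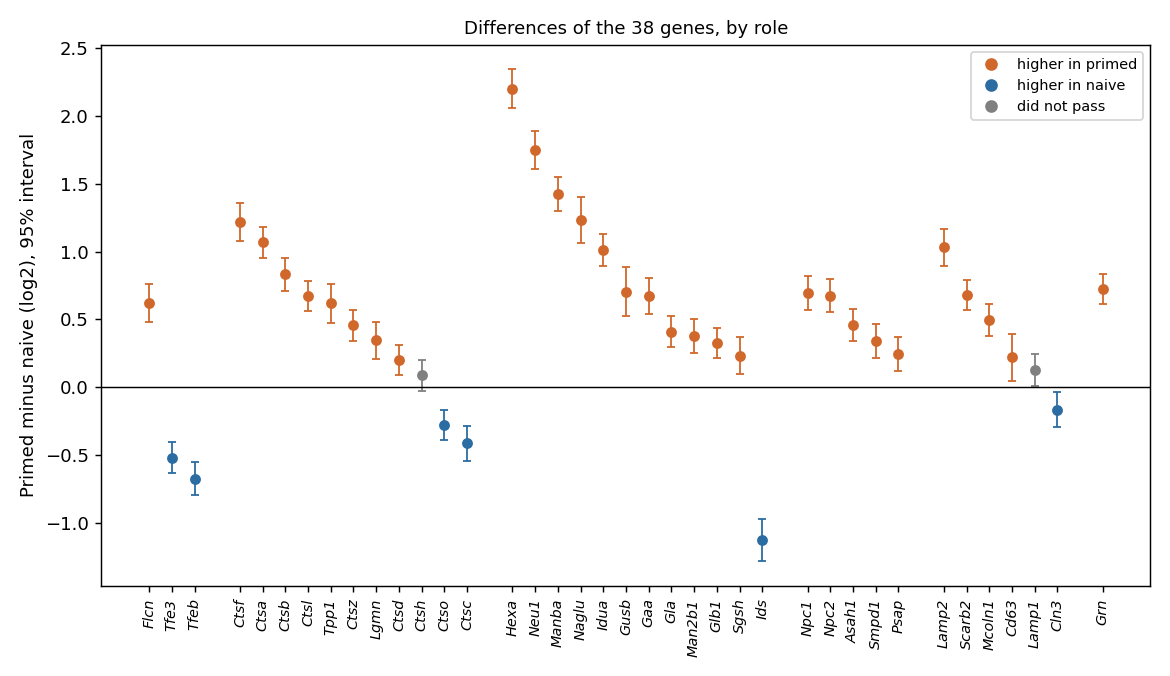
Difference of each gene (vertical axis, primed minus naive, log2) with its 95% interval from limma, grouped by role; orange genes were higher in primed cells, blue genes higher in naive cells and grey genes did not pass. Tfe3, Tfeb, Ctsc, Ctso, Ids and Cln3 lie below 0.

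Tfe3 and Tfeb bind the E-box CACGTG, which lies within the element shared by lysosomal promoters (CLEAR). Exact matches of CACGTG, of TCACGTG and of the palindrome TCACGTGA were searched on both strands of RefSeq promoter windows of GRCm38.p6. These windows run from 250 bases before to 50 bases after an annotated gene start. A window without an exact match may still hold a variant of the element. The longer forms contain the shorter ones, so their counts are nested. Windows were found for 34 of the 38 genes (41 windows) and for 15614 of all genes (19177 windows). CACGTG occurred in 13 of the 34 genes (38.2%) and in 9.5% of all genes, TCACGTG in 11 (32.4%) and 5.35%, and TCACGTGA in 5 (14.7%) and 1.52%. Counted by window, 8.24%, 4.65% and 1.32% of all windows held these forms. Tfe3, Tfeb and Flcn held none of them in their windows. The sequences below are those of the set with the palindrome upstream of the gene start, in which TCACGTGA is in capitals. Ctsa held another copy just downstream of its start, which is not shown. Lamp1 is added because it held the most matches, with each 7-base TCACGTG, read on either strand, in capitals.
Cln3, chr7:126583335-126583374, minus strand: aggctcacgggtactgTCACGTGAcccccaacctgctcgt
Ctsa, chr2:164833744-164833772, plus strand: aacaatgagcaaactgTCACGTGAtgcag
Ctsd, chr7:142387903-142387942, minus strand: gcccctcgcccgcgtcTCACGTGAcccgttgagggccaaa
Gla, distal site, chrX:134601210-134601249, minus strand: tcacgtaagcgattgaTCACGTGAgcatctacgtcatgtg
Gla, proximal site, chrX:134601177-134601216, minus strand: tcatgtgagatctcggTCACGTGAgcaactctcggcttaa
Mcoln1, chr8:3500457-3500496, plus strand: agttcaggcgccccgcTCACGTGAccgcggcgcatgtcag
Lamp1, chr8:13159093-13159160, plus strand: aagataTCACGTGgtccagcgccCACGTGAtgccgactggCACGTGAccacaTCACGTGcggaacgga

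Genes of the set with and without the E-box both lay mostly higher in primed cells. Of the 13 with CACGTG, 11 rose in primed cells and 1, Cln3, was higher in naive cells; Lamp1, with 4 matches, did not pass. Their median difference was 0.41, against 0.62 for the 21 genes with a window and no match. The largest differences of the set, those of Hexa, Neu1 and Manba, belonged to genes with no CACGTG in the window. Over all genes with a window, 25.7% of the 1483 with CACGTG were higher in primed cells (381, with 406 higher in naive cells), against 21.4% of those without it, and the medians were -0.006 and -0.002. For the palindrome, 32.8% of the 238 with TCACGTGA were higher in primed cells (78, with 57 higher in naive cells). Of those without it 21.6% were higher in primed cells, and the medians were 0.02 and -0.002. Genes with and without a match were not matched for level. These shares are a description of letters in short windows and no test was made of them.

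The proteases rose in 8 of 11 cases, were higher in naive cells in 2 and did not pass in 1. Ctsf, a papain-like cathepsin, stood at 8.24, 8.27 and 8.08 on naive and at 9.43, 9.47 and 9.36 on primed arrays. This was a 2.33-fold rise (difference 1.22, SE 0.06, limma adjusted p = 4.0e-08). Ctsa encodes the carboxypeptidase that also protects neuraminidase and beta-galactosidase in a complex. It went from 11.66, 11.57 and 11.58 to 12.70, 12.65 and 12.68, a rise of 1.07 (SE 0.05, adjusted p = 2.6e-08). Ctsb, a cysteine protease of most cells, was at 10.38, 10.38 and 10.38 in naive and at 11.28, 11.13 and 11.22 in primed cells. Its rise was 0.83 (SE 0.06, adjusted p = 2.9e-07). Ctsl, another broad cysteine protease, went from 11.80, 11.76 and 11.75 to 12.43, 12.47 and 12.44 (0.67, SE 0.05, adjusted p = 6.8e-07). In each of these genes the lowest primed array was above the highest naive array.

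The remaining proteases differed less. Tpp1, a tripeptidyl peptidase, rose by 0.62, Ctsz, a carboxypeptidase, by 0.46, and Lgmn, which cuts after asparagine and activates cathepsins, by 0.34. Ctsd, the main aspartic protease of the lysosome, rose by 0.20 (adjusted p = 0.0063). Ctsc, a dipeptidyl peptidase that activates granule proteases of immune cells, was lower in primed cells, from 10.75, 10.80 and 10.72 to 10.42, 10.25 and 10.36 (-0.41, adjusted p = 0.00012). Ctso was also lower, by a difference of -0.28 (adjusted p = 7e-04). Ctsh, an aminopeptidase, was in background in both groups, with means of 5.83 and 5.92, where a difference of 0.09 (95% interval -0.02 to 0.20) cannot be read as a lack of change.

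Enzymes that remove sugars and sulfates from glycans held the largest differences, with 11 of 12 rising in primed cells, 1 lower there and a median of 0.69. Hexa encodes the alpha subunit of beta-hexosaminidase, which clears GM2 ganglioside and is lost in Tay-Sachs disease. Its level went from 7.75, 7.84 and 7.75 on naive arrays to 10.12, 9.90 and 9.94 on primed arrays. This 4.6-fold rise (difference 2.20, SE 0.06, limma adjusted p = 6e-10) was the largest of the set. Neu1, the lysosomal neuraminidase that removes sialic acid, went from 8.53, 8.64 and 8.58 to 10.43, 10.22 and 10.33. It rose 3.36-fold (1.75, SE 0.06, adjusted p = 2.8e-09). Manba, a beta-mannosidase of N-glycan breakdown, went from 8.01, 8.12 and 8.02 to 9.55, 9.43 and 9.45, a rise of 1.42 (SE 0.06, adjusted p = 6.3e-09). Naglu, a glucosaminidase of heparan sulfate breakdown, was at 7.94, 7.89 and 8.20 in naive and at 9.28, 9.21 and 9.23 in primed cells (1.23, SE 0.08, adjusted p = 1.7e-07). All 4 genes lay above background on every array, without overlap between the groups.

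Idua, the iduronidase of heparan and dermatan sulfate breakdown, rose by 1.01, and Gusb, a beta-glucuronidase, by 0.71. Gaa, which degrades lysosomal glycogen, rose by 0.67 and Gla, which removes galactose from globotriaosylceramide, by 0.41. Man2b1, an alpha-mannosidase, rose by 0.38, the beta-galactosidase gene Glb1 by 0.32 and Sgsh, a heparan sulfamidase, by 0.23. Their adjusted p-values lay between 5.6e-08 for Idua and 0.0082 for Sgsh. Ids was the exception. This X-linked gene encodes the sulfatase that removes sulfate from iduronic acid and stood at 10.35, 10.43 and 10.47 on naive and 9.42, 9.31 and 9.15 on primed arrays. It was 2.19-fold higher in naive cells (difference -1.13, SE 0.07, adjusted p = 1.8e-07).

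All 5 genes of lipid handling rose in primed cells, with differences from 0.25 to 0.70. Npc1 and Npc2 encode the membrane and soluble proteins that pass cholesterol out of the lysosome. Npc1 went from 11.06, 11.21 and 11.16 to 11.88, 11.85 and 11.79 (0.70, SE 0.06, limma adjusted p = 1.7e-06). Npc2 went from 9.89, 9.83 and 9.91 to 10.61, 10.50 and 10.54 (0.68, SE 0.05, adjusted p = 1.4e-06). Asah1, acid ceramidase, was at 11.10, 11.14 and 11.10 in naive and at 11.52, 11.56 and 11.64 in primed cells, a rise of 0.46 (SE 0.05). Smpd1, acid sphingomyelinase, went from 10.54, 10.55 and 10.56 to 10.98, 10.82 and 10.89, a rise of 0.34 (SE 0.06). Psap, the precursor of the saposins that present sphingolipids to their enzymes, rose by 0.25 (adjusted p = 0.0038).

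The membrane proteins were less uniform, of which 4 of 6 rose in primed cells, Cln3 was lower there and Lamp1 did not pass. Lamp2, an X-linked coat protein of the lysosomal membrane that also serves chaperone-mediated autophagy, went from 10.21, 10.16 and 10.20 to 11.34, 11.20 and 11.12. It rose 2.04-fold (1.03, SE 0.06, limma adjusted p = 1.5e-07). Its partner in the coat, Lamp1, did not pass, with means of 12.30 and 12.42 and a difference of 0.12 (95% interval 0.01 to 0.24, adjusted p = 0.080), though its primed arrays lay above the naive ones. Lamp1 passed under quantile normalization (0.22, adjusted p = 0.0028), with an intensity trend (adjusted p = 0.015) and after removal of dim genes (adjusted p = 0.042). Scarb2, a membrane protein that also carries cargo to the lysosome, went from 10.10, 10.16 and 10.16 to 10.84, 10.80 and 10.83 (0.68, SE 0.05, adjusted p = 6.8e-07). Mcoln1, the lysosomal calcium channel, went from 11.56, 11.65 and 11.62 to 12.16, 12.09 and 12.08 (0.50, SE 0.05, adjusted p = 1.3e-05).

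The calls of Cd63 and Cln3 were weak. Cd63, a tetraspanin of late endosomes and exosomes, stood at 11.43, 11.10 and 11.33 in naive and at 11.47, 11.55 and 11.51 in primed cells. The gap of 0.22 (SE 0.08, limma adjusted p = 0.039) was widened by naive replicate 2, without which it was 0.13 (adjusted p = 0.14). The Cd63 call also ended without naive replicate 3 (adjusted p = 0.053) and without primed replicate 1 (0.063), 2 (0.11) or 3 (0.077), with arrays centred (0.14) and with the replicate number as a block (0.054). Cln3, a membrane protein whose loss causes a neuronal storage disease, was slightly lower in primed cells (-0.17, adjusted p = 0.038). It no longer passed without naive replicate 1 (adjusted p = 0.075) or 3 (0.15), primed replicate 2 (0.14) or 3 (0.11), or under quantile normalization (0.14). Grn, which encodes the secreted and lysosomal glycoprotein progranulin, rose from 11.65, 11.63 and 11.66 to 12.41, 12.35 and 12.35 (0.72, SE 0.05, adjusted p = 4.1e-07).

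**Figure D3:**
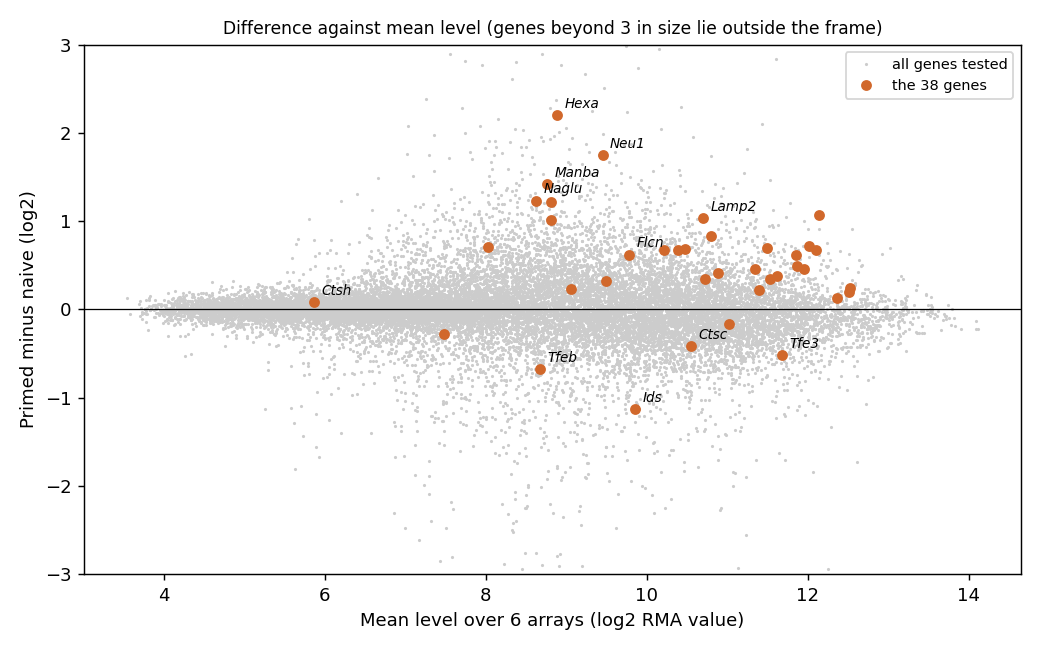
Difference (vertical axis, primed minus naive, log2) against mean level over the 6 arrays (horizontal axis, log2 RMA value) for all genes in grey and the 38 genes in orange; 20 genes with differences beyond 3 lie outside the frame. The 5 genes with the largest rises lie at mean levels between 8 and 10, and Ctsh lies among dim genes whose differences are close to 0.

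Other genes of the lysosome and of the pathways around it were counted in the same way. A list of 58 other lysosomal genes, 52 of them measured, had 25 that rose in primed cells (48.1%, against 21.8% of all genes and 29.8% of genes above the 40th percentile of mean level) and 11 that were lower there (21.2%, against 22.7% and 31.7%), with a median of 0.14. Of the 22 listed as membrane proteins 6 rose and 6 were lower, and of the other 30 genes 19 rose and 5 were lower. The 19 include Tmem175 (0.605) and Hgsnat (0.38), which also encode membrane proteins, so the split by role is approximate. Galc, the galactosylceramidase lost in Krabbe disease, rose by 1.14, the carboxypeptidase gene Scpep1 by 0.98 and the mannosidase gene Man2b2 by 0.88. Laptm5, a lysosomal protein of blood cells, was lower in primed cells (-0.96), as were the transporter gene Mfsd12 (-0.49) and Litaf (-0.38). The count higher in naive cells fell to 7 without naive replicate 2 or primed replicate 3, and to 6 without primed replicate 2. Background levels on all arrays were seen for 6 of the 52.

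The vacuolar ATPase acidifies the lysosome. Of 23 measured genes for its subunits and assembly partners, 12 rose in primed cells (52.2%) and 4 were lower there (17.4%). Of genes above the 40th percentile of mean level, 29.8% rose and 31.7% were lower. The median of the 23 was 0.17. Atp6ap2, an accessory subunit, rose by 0.93, Atp6v0e2 by 0.72 and Atp6v0d1 by 0.64. The membrane subunit genes Atp6v0a2 (-0.70), Atp6v0a4 (-0.25) and Atp6v0e (-0.23) were higher in naive cells. Genes that tag or carry enzymes to the lysosome rose in 4 of 10 cases (40%, against the same 29.8%). In this list 1 was lower (10%, against 31.7%), and the median was 0.06. The rises were those of Sort1, a sorting receptor (0.60), the adaptor gene Gga2 (0.42), Gnptab (0.46) and Gnptg (0.36). The last 2 encode subunits of the enzyme that builds the mannose 6-phosphate tag. Gga3 was lower (-0.32). Igf2r, a receptor for that tag, did not pass (-0.01, 95% interval -0.14 to 0.12).

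Of the 25 genes of mTORC1, its regulators and its anchoring on the lysosome, 11 rose in primed cells (44%) and 4 were lower (16%). Of genes above the 40th percentile of mean level, 29.8% rose and 31.7% were lower. The median of the 25 was 0.08. Of the 12 genes for mTORC1 subunits and for regulators of the complex, 4 rose (33.3%) and 2 were lower (16.7%). Both folliculin partners rose with Flcn. Fnip1 went from 9.53, 9.73 and 9.68 to 10.59, 10.50 and 10.48 (0.88, SE 0.06, limma adjusted p = 6.3e-07), and Fnip2 from 9.27, 9.59 and 9.51 to 10.22, 10.12 and 10.08 (0.69, SE 0.08, adjusted p = 2.6e-05). Rragd, a Rag GTPase known as a target of Tfe3 and Tfeb, went from 8.95, 9.20 and 9.01 to 9.90, 9.87 and 9.86 (0.82, SE 0.07). Deptor, an mTOR inhibitor, was lower in primed cells (-0.66), as were Rraga (-0.22) and Lamtor1 (-0.20). The count of 4 higher in naive cells fell to 2 without naive replicate 3 and to 1 without primed replicate 2.

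Autophagy genes went both ways, with 12 of 33 rising in primed cells (36.4%, against 29.8% of genes above the 40th percentile of mean level), 14 lower there (42.4%, against 31.7%) and a median of -0.09. Wipi1 (0.74), Ulk2 (0.69) and Gabarapl1 (0.56) were the largest rises, all genes of autophagosome formation. Atg2a, a lipid transfer protein gene (-0.77), Wdr45 (-0.69) and Atg101 (-0.61) were the largest in the other direction. With each array centred, the count of rises was 6.

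**Figure D4:**
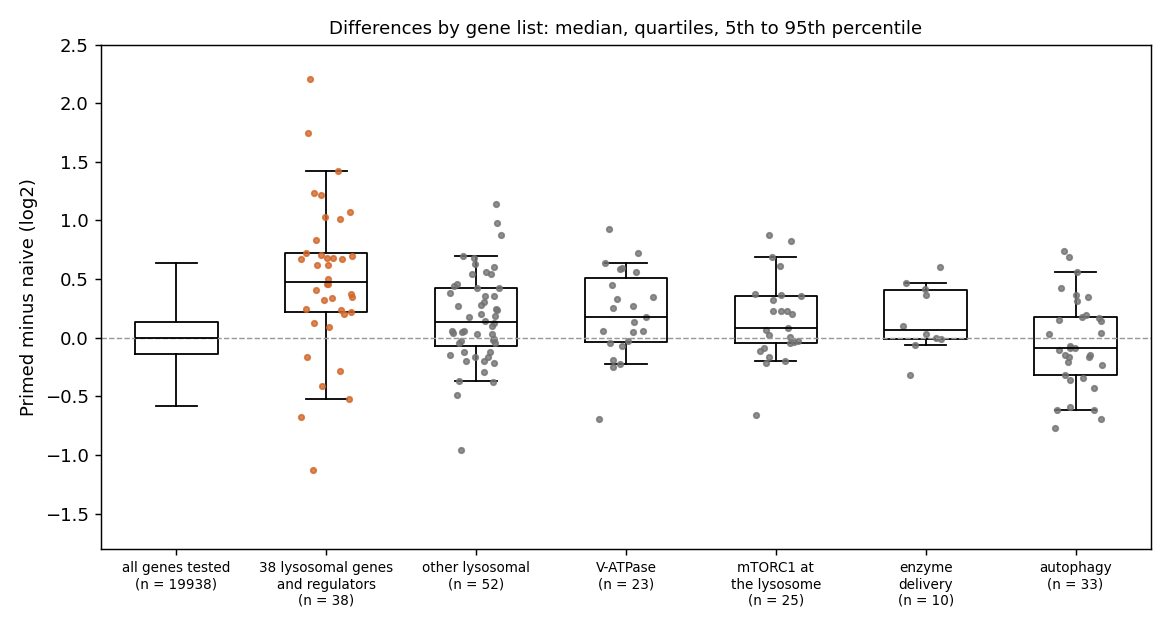
Differences (vertical axis, primed minus naive, log2) of all genes and of each list; boxes give median and quartiles, whiskers the 5th and 95th percentiles, points single genes. The median of the 38 genes is 0.48, that of the autophagy list -0.09 and that of all genes -0.001.

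Markers of other cell types rich in lysosomes, or present as feeders, were read beside these values. Of 12 macrophage markers 9 were at background in both groups. The 1 that rose in primed cells and the 2 that were lower there were among these 9. The log2 of the summed level of all 12 was 10.19 to 10.27 in naive and 10.13 to 10.22 in primed cells. Of 14 visceral endoderm markers 1 rose in primed cells, 1 was lower there and 5 were at background in both groups. Their summed level was 11.69 to 11.80 in naive and 11.88 in primed cells. That sum includes the 1 rise, of Lrp2 (from a mean of 9.83 to 10.50), and the median difference of the 14 was -0.004. Of 14 fibroblast markers 2 rose in primed cells and 5 were lower there, with 4 at background in both groups. The rises were those of Dcn (2.89, from a mean of 7.25 to 10.15) and Pdgfrb, while Col1a1 and Col1a2 were lower. The summed level of the 14 was 11.66 to 11.69 in naive and 11.85 to 11.88 in primed cells. That sum includes the rise of Dcn, whereas the median difference of the 14 was -0.095. All 9 measured trophoblast markers were higher in naive cells, with summed levels of 12.30 to 12.35 against 11.14 to 11.19. The 7 of 9 pluripotency markers lower in primed cells are given above. The part of any of these cell types, or of the level of pluripotency genes, in the differences was not tested.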

How the data were processed

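The authors deposited log2 values made with RMA in Partek 6.6, per the submitters' processing notes; no source used here gives its settings or a genome build. RMA compresses differences of dim genes. GEO's platform annotation pairs 21789 of the 35556 probe sets with 1 gene symbol, 1621 with several and leaves 12146 unnamed here; 21698 of those with 1 symbol were found in RefSeq (GRCm38.p6). The brightest probe set stood for each of 19938 genes. Under R 4.3.3, limma 3.58.1 (lmFit, then eBayes) fitted the 3 naive against the 3 primed arrays without covariates or renormalization; tests were two-sided and p-values were adjusted over all genes by Benjamini and Hochberg's method. Having 3 arrays in each group limits the precision. Data were simulated with the real spread of 19938 genes for this comparison, and a small part of the genes was shifted. Of genes shifted by 0.25, 18% were recovered, of those shifted by 0.5, 92%, and of those shifted by 1, 98%. In all, 5 unchanged genes were called. In the data 4347 and 4529 genes passed, many more than were shifted in the simulation. The adjusted p cutoff was therefore stricter in the simulation, and its shares can understate the recovery of small differences in the data.

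Members and lists were chosen with earlier results of these data known. All members are named; array values are given for regulators and, per role, for up to 4 members with the largest difference past the threshold. Ctsc and Ids were added after their values were seen. In each other pathway list the 3 largest differences past the threshold in each direction are named, with Mitf, Tfec, Fnip1 and Fnip2. Marker lists are given as counts, with Pou5f1 and Sox2 as the check of the cell type. Gnptg, Igf2r, Hgsnat, Tmem175, Lrp2, Dcn, Pdgfrb, Col1a1 and Col1a2 were named after their values were seen. Some genes of the other lists were not analysed here. Summed levels are log2 of the sum of linear values. Replicate numbers did not pair the arrays: deviations from group means correlated at -0.11, 0.002 and -0.02 for numbers 1, 2 and 3. No array was left out.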

Additional observations from a re-analysis of the deposited data

How the results depend on the processing

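In the 14 alternatives that refitted the data (centring and quantile scaling, removal of genes below the 40th percentile of level, other probe set rules, an intensity trend, array weights, the replicate block and leaving out each array), no difference of the 38 genes changed sign and 3 genes, Cd63, Cln3 and Lamp1, changed their call. Ctsh and Ctso were too dim to be tested after that removal. Leaving out each array gave 29 to 30 genes of the set higher in primed and 5 to 6 higher in naive cells, and 3926 to 4169 and 4007 to 4455 over all genes. The replicate block gave 29 and 6 in the set and 4172 and 4344 over all genes, ending the call of Cd63 alone; same-numbered arrays did not deviate together, so the block is not read as a pairing. A stricter adjusted p of 0.01 removed the calls of Cd63 and Cln3 only. Requiring a difference of at least 0.5 left 18 and 3 genes of the set, and 1480 and 1286 of all genes; requiring at least 1 left 8 and 1, and 340 and 367. Leaving out Ctsh, in background in both groups and not called, could not change the counts. Centring moved the median difference over all genes from -0.001 to -0.07 and that of the set from 0.48 to 0.41. With 3 arrays a group, an exact permutation test of 1 gene could not go below p = 0.1.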

Other observations

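Enzymes that act in order on heparan sulfate did not all move one way; this grouping was made after the values were seen. Ids, which removes sulfate from iduronic acid, was lower in primed cells (-1.13), while Idua (1.01), Gusb (0.71) and Naglu (1.23), which remove sugars, rose, and Sgsh (0.23) and the acetyltransferase gene Hgsnat (0.38) rose less. The 3 genes of the neuraminidase complex rose by unequal amounts, with Neu1 at 1.75, Ctsa at 1.07 and Glb1 at 0.32.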
